A study of Mus musculus with 4 samples.

Results

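The 9 genes described here mark or control stem cells of the hair follicle: Lgr5, Lgr6, Cd34, Sox9, Lhx2, Nfatc1, Tcf3, Lrig1 and Gata6. They were chosen by name, as all probe sets (groups of array probes for 1 transcript) to which the annotation of the array platform gives 1 of these symbols and no other. This gave 23 of 45101 probe sets. Lgr5, Cd34, Sox9, Lhx2, Nfatc1 and Tcf3, with 15 probe sets, were taken as genes of the bulge, and Lgr6, Lrig1 and Gata6, with 8 probe sets, as genes of the upper follicle. The skin came from the back of wild type and K5-IKKbeta transgenic mice, all males 32 days old of the cross C57BL6 X DBA2, with 2 Affymetrix arrays a genotype. The transgene places IKKbeta, the kinase through which inflammatory signals switch on NF-kB, under control elements of keratin K5, which act in basal keratinocytes of the epidermis and outer root sheath. An array held the pooled RNA of 3 mice. The replicates here are therefore pools, and the spread between single mice was not measured.

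The hair follicle renews its lower part in cycles of growth, regression and rest. Its stem cells lie in the bulge, below the sebaceous gland, and in the hair germ beneath it. The bulge is marked by Cd34 and by transcription factors such as Sox9, Lhx2 and Nfatc1, and Lgr5 marks the lower bulge and hair germ. Other stem and progenitor cells lie higher: Lgr6 marks the isthmus, Lrig1 the junction with the sebaceous gland, and Gata6 the duct of the upper follicle. The symbol Tcf3 needs care. In mouse nomenclature it names the E2A gene, a helix-loop-helix factor, and the gene identifier of its 3 probe sets is that of E2A. The Wnt-pathway factor of the bulge that was long called TCF3 is Tcf7l1, which was therefore measured beside it.

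In K5-IKKbeta skin, 4 of the 9 genes were higher than in wild type skin by their brightest probe set: Nfatc1 3.20-fold, Lgr6 2.38-fold, Cd34 1.86-fold and Lhx2 1.39-fold. Sox9, Tcf3, Lrig1, Gata6 and Lgr5 did not pass the threshold by that probe set, and a dimmer probe set of Lgr5 was lower. Calls rest on limma with Benjamini-Hochberg adjustment over 45037 probe sets and an adjusted p threshold of 0.05. Every standard error (SE) and 95% interval given is limma's moderated one. It combines the probe set's own variance (2 degrees of freedom) with a prior variance estimated over all probe sets (4.46). An SE can therefore be larger or smaller than the pools of that probe set alone would give. Over all 23 probe sets, 8 were higher and 1 lower, where 10.4% of all probe sets tested were higher, 5.90% lower and 16.3% called in either direction. The arrays of both groups did not overlap for 14 of the 23, where this held for 56.1% of all probe sets. By the brightest probe set, 4 of 9 members were higher and 0 lower, where 14.3% of 18193 genes were higher, 6.67% lower and 21.0% called in either direction. Groups did not overlap for 8 of the 9, where this held for 61.6% of all genes. At an unadjusted p under 0.05 there were 5 of the 9, the other being Lgr5, where 34.5% of all genes had such a p. All 9 were bright enough to enter a second fit, kept to the brightest probe set of each gene and to means past the 40th percentile. That fit also called 4 members higher and 0 lower, where 23.4% of 13080 genes were higher, 10.6% lower and 33.9% called in either direction. The members' median log2 difference, K5-IKKbeta minus wild type, was 0.21, against 0.03 over all genes and 0.09 over the genes of the second fit.

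**Figure D1:**
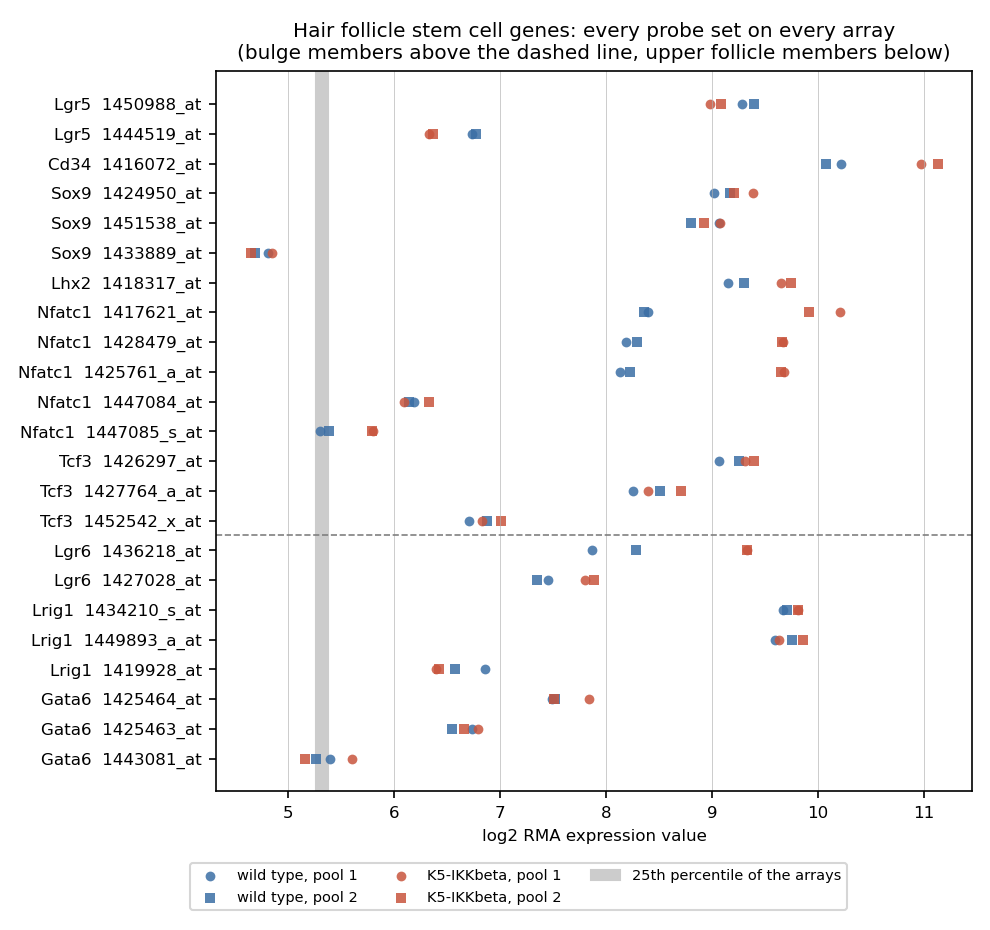
Log2 RMA expression value (horizontal axis) of each of the 23 probe sets (rows) on each of the 4 arrays (points; blue wild type, red K5-IKKbeta, shape by pool), with the range of the arrays' 25th percentiles as a grey band. For Cd34, Lhx2 and the 3 brighter probe sets of Nfatc1 both red points lie to the right of both blue points, and for Lgr5 to the left.

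Arrays of a genotype resembled each other, with a Pearson correlation over probe sets of 0.996 between wild type pools and 0.994 between K5-IKKbeta pools, and of 0.965 to 0.969 between genotypes. The gene of the transgene, Ikbkb, was higher by 3 of its 5 probe sets, with log2 differences of 0.47 to 2.24. Where those probe sets lie relative to the transgene was not analysed here. The tissue held follicles in both groups: the 15 measured keratins and trichohyalin of hair shaft and inner root sheath averaged 13.40 and 13.43 on the log2 scale in wild type and 9.17 and 9.62 in K5-IKKbeta skin. All 15 were lower, with a median log2 difference of -3.02. In whole skin, fewer cells of a type and less RNA per cell cannot be told apart, and this holds for every value below.

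Lgr5 and Lgr6 are receptors for R-spondins, secreted proteins that strengthen Wnt signals by removing the ubiquitin ligases Znrf3 and Rnf43 from the cell surface. Their values differed in opposite directions. Lgr6 (probe set 1436218_at) measured 7.87 and 8.28 in the wild type pools and 9.33 and 9.33 in the K5-IKKbeta pools. Both K5-IKKbeta values lay above both wild type values, and the wild type pools lay 0.41 apart. The log2 difference was 1.25 ± 0.15 (SE, n = 2 arrays a group; limma adjusted p = 0.0031). This probe set passed the threshold in all 14 alternative settings in which it was fitted (1.05 to 1.46). The mean of the gene's probe sets passed too, with a smaller log2 difference of 0.85. The dimmer Lgr6 probe set, 1427028_at, went from 7.45 and 7.35 to 7.80 and 7.89, also without overlap. Its log2 difference was smaller, at 0.44 ± 0.11 (SE, n = 2 each; limma adjusted p = 0.041), and it did not pass with any 1 of the 4 arrays left out (limma adjusted p 0.060 to 0.26) or with another quantile normalization (0.061) or centring (0.054).

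Lgr5 was the only member whose brightest probe set was below wild type. Probe set 1450988_at measured 9.28 and 9.40 in wild type and 8.98 and 9.09 in K5-IKKbeta skin. The groups did not overlap, but the log2 difference of -0.31 ± 0.11 (SE, n = 2 each) did not pass (limma adjusted p = 0.13, 95% interval -0.58 to -0.04). The dimmer 1444519_at measured 6.74 and 6.78 in wild type and 6.33 and 6.37 in K5-IKKbeta skin. Here the pools of each group lay within 0.04 of each other, and the probe set was lower by the test, with a log2 difference of -0.41 ± 0.11 (SE, n = 2 each; limma adjusted p = 0.045). That call was lost without any 1 of the 4 arrays (limma adjusted p 0.076 to 0.26). The brighter probe set in turn passed when the arrays were normalized again by quantiles, with hair genes (-0.39, limma adjusted p = 0.044) and without them (-0.40, limma adjusted p = 0.041). It passed in none of its other alternatives. The mean of the gene's probe sets also passed (-0.36, limma adjusted p = 0.040). Both probe sets stayed below wild type in every setting in which they were fitted, while the call came and went.

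Of 11 measured genes of R-spondin reception and Wnt response, 1 was higher and 1 lower, with a median log2 difference of -0.12. Rspo1, an R-spondin ligand, was higher by 0.60 (limma adjusted p = 0.041). Lef1, a Wnt-pathway transcription factor strong in the growing hair bulb, was lower by a log2 difference of -1.24 (limma adjusted p = 0.017). It measured 10.15 and 10.55 in wild type and 8.77 and 9.45 in K5-IKKbeta skin. Lgr4, the third receptor of the family, had a log2 difference of -0.29 (limma adjusted p = 0.26). Axin2, a general target of Wnt signals, stood at 0.33 (limma adjusted p = 0.10), Znrf3 at -0.33 (limma adjusted p = 0.21) and Rnf43 at -0.02 (limma adjusted p = 0.93). None of these 4 passed the test. The list's higher call was lost without any 1 of the 4 arrays, with another quantile normalization, with or without hair genes, and against 1.2-fold (0 higher in each). Its lower call was lost without either wild type array (0 lower).

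Lrig1 is a membrane protein that restrains ErbB receptors and keeps its cells quiescent. Its 2 bright probe sets did not pass. Probe set 1434210_s_at measured 9.67 and 9.71 in wild type and 9.81 and 9.81 in K5-IKKbeta skin, a log2 difference of 0.12 (95% interval -0.13 to 0.37, limma adjusted p = 0.53), and 1449893_a_at had 0.07 (95% interval -0.24 to 0.38, limma adjusted p = 0.80). The dim 1419928_at pointed the other way, from 6.86 and 6.58 to 6.40 and 6.43 (-0.30, limma adjusted p = 0.19). The intervals of the bright probe sets end below a difference of 0.4, so larger rises in Lrig1 lie outside them. Of the 4 ErbB receptors none passed in limma (log2 differences -0.28 to 0.08), with 1 at an unadjusted p under 0.05. The receptor at 0.08 lay below the 25th percentile on all 4 arrays and gives no measure of change. The paralog Lrig3 was higher by 0.46 (limma adjusted p = 0.036), going from 9.47 and 9.62 to 10.00 and 10.02, and Lrig2 stood at 0.06 (limma adjusted p = 0.85).

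Cd34 is a sialomucin of the cell surface that marks mouse bulge cells and is also made by endothelium, dermal fibroblasts and mast cells. Its single probe set, 1416072_at, measured 10.22 and 10.08 in wild type and 10.97 and 11.13 in K5-IKKbeta skin. The groups lay 0.74 apart at their nearest values, and the log2 difference was 0.90 ± 0.12 (SE, n = 2 each; limma adjusted p = 0.0042). The call was lost without wild type pool 2 (0.83, adjusted p = 0.059) and kept in the other 14 alternatives (adjusted p from 0.00087). Many markers of those other cell types were higher too. Of 10 endothelial markers 7 were higher and 0 lower, with list means of 7.59 and 7.60 in wild type and 8.23 and 8.19 in K5-IKKbeta skin. Of 7 dermal fibroblast markers 4 were higher and 0 lower (list means 12.40 and 12.29 against 12.98 and 13.21). Of 7 mast cell markers 5 were higher and 0 lower (7.47 and 7.53 against 8.29 and 8.51), while the IgE receptor chain Fcer1a lay below the 25th percentile on all 4 arrays. Kit, the receptor on which mast cells depend, pointed the other way without passing, from 9.01 and 9.42 to 8.70 and 8.88 (-0.42, limma adjusted p = 0.14). Melanocytes also make Kit, and all 5 melanocyte markers were lower (list means 11.64 and 11.64 against 10.35 and 10.49). The part of that in the value of Kit was not tested. Without wild type pool 1 or 2, the higher endothelial markers numbered 3 and 2, the fibroblast markers 2 and 2, and the mast cell markers 4 and 3. Their part in the value of Cd34 was not tested.

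Nfatc1, a calcium-regulated transcription factor that holds bulge cells in quiescence and also acts in lymphocytes and osteoclasts, showed the largest difference of the 9. Probe set 1417621_at measured 8.40 and 8.36 in wild type and 10.21 and 9.92 in K5-IKKbeta skin. The groups lay 1.52 apart at their nearest values, and the log2 difference was 1.68 ± 0.13 (SE, n = 2 each; limma adjusted p = 0.00059). Probe sets 1428479_at and 1425761_a_at gave log2 differences of 1.43 and 1.49 (limma adjusted p = 0.00051 and 0.00044). These 3 passed in every alternative in which they were fitted, the 4 fits without 1 array included (adjusted p up to 0.014).

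Both remaining Nfatc1 probe sets are annotated to a single source sequence and were dim. Probe set 1447085_s_at went from 5.30 and 5.39 to 5.80 and 5.79, a log2 difference of 0.45 (limma adjusted p = 0.035) that did not pass with any 1 array left out (limma adjusted p 0.067 to 0.24). Probe set 1447084_at measured 6.19 and 6.14 against 6.10 and 6.33, with overlapping groups (0.05, limma adjusted p = 0.85). Averaging all 5 probe sets lowered the gene's log2 difference from 1.68 to 1.02 (limma adjusted p = 0.00066). Which transcripts each probe set binds was not analysed here.

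Other genes of calcineurin and NFAT signalling were measured beside Nfatc1. Of 12 measured, 4 were higher and 0 lower, with a median log2 difference of 0.29. Over all genes 14.3% were higher and 6.67% lower. In the second fit 5 of the 11 that entered were higher and 1 lower, where 23.4% of genes were higher and 10.6% lower. The 4 higher genes were Nfatc4 (0.85, limma adjusted p = 0.0090) and Nfatc2 (0.49, limma adjusted p = 0.024), further NFAT factors, the calcineurin catalytic subunit Ppp3ca (0.63, limma adjusted p = 0.012) and the calcineurin regulator Rcan2 (0.76, limma adjusted p = 0.011). Rcan1, a gene that NFAT factors induce, had a log2 difference of -0.03 (limma adjusted p = 0.88). Ppp3cb, another calcineurin catalytic subunit, pointed the other way, from 10.36 and 10.54 to 9.93 and 10.09, without passing (-0.45, limma adjusted p = 0.056). The list's count of higher genes was 1 without wild type pool 1, 0 without wild type pool 2 and 2 against 1.2-fold, and 1 gene of it was lower in 8 of the 15 alternatives. Leukocyte markers were higher as well. All 6 macrophage markers were higher, with list means of 7.82 and 7.83 in wild type and 8.96 and 9.10 in K5-IKKbeta skin. Of 5 measured T cell markers 2 were higher and 0 lower (6.77 and 6.73 against 7.46 and 7.16), and the count ranged from 1 to 4 without 1 array. Their part in the value of Nfatc1 was not tested.

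Lhx2, a LIM homeobox factor of hair placodes and bulge, was higher by a small step. Probe set 1418317_at measured 9.15 and 9.30 in wild type and 9.65 and 9.75 in K5-IKKbeta skin. The groups did not overlap, and the log2 difference was 0.48 ± 0.11 (SE, n = 2 each; limma adjusted p = 0.036). The call was lost with each of the 4 arrays left out in turn (0.41 to 0.55, limma adjusted p 0.053 to 0.25) and against a minimum change of 1.2-fold (adjusted p = 0.35). Of 7 markers of basal epidermis and outer root sheath, 3 were higher and 2 lower (list means 12.13 and 12.10 against 12.25 and 12.13), with no common direction. The basal keratin Krt5 was higher by 0.49 (limma adjusted p = 0.049), Krt16, a keratin of stressed epidermis, by 3.22, and Krt75, of the companion layer, was lower at -2.77. The count of higher ones was 1 in place of 3 with centring, without hair genes in the normalization, against 1.2-fold and without any array but K5-IKKbeta pool 2. Their part in the value of Lhx2 was not tested.

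Sox9, a factor of outer root sheath and bulge, did not pass. Its brightest probe set, 1424950_at, measured 9.02 and 9.17 in wild type and 9.39 and 9.21 in K5-IKKbeta skin, a log2 difference of 0.21 (95% interval -0.09 to 0.50, limma adjusted p = 0.34). Probe set 1451538_at, annotated to the same source sequence, gave 0.08 with overlapping groups (limma adjusted p = 0.78). The third, 1433889_at, lay below the 25th percentile on all 4 arrays and gives no measure of change.

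The 3 probe sets of Tcf3, the E2A gene, had log2 differences of 0.12 to 0.19, and none passed (limma adjusted p 0.36 to 0.59). The brightest, 1426297_at, measured 9.07 and 9.26 in wild type and 9.31 and 9.40 in K5-IKKbeta skin (95% interval -0.09 to 0.48). Tcf7l1, the bulge repressor of Wnt targets, measured 9.37 and 9.18 against 9.30 and 9.32, with overlapping groups and a log2 difference of 0.04 (95% interval -0.24 to 0.32, limma adjusted p = 0.89). Its dimmer probe set gave -0.12 (95% interval -0.40 to 0.16, limma adjusted p = 0.57). So neither gene that has carried the name passed the test, and the intervals of their brightest probe sets reach 0.48 and 0.32.

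Gata6, a zinc finger factor of the sebaceous duct, had 3 probe sets, and none passed (log2 differences 0.06 to 0.17, limma adjusted p 0.49 to 0.88). Probe set 1425464_at measured 7.49 and 7.52 in wild type and 7.84 and 7.51 in K5-IKKbeta skin. K5-IKKbeta pool 1 was the high value there, and pool 2 lay at the level of the wild type pools. Of 14 measured paralogs of the members, 1 was higher and 0 lower, namely Lrig3, described above; the count was 0 without either wild type array. Gata3, a factor of the inner root sheath, had a log2 difference of -0.13 (limma adjusted p = 0.60), and Sox8, Lhx8 and Gata5 lay below the 25th percentile on all 4 arrays.

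**Figure D2:**
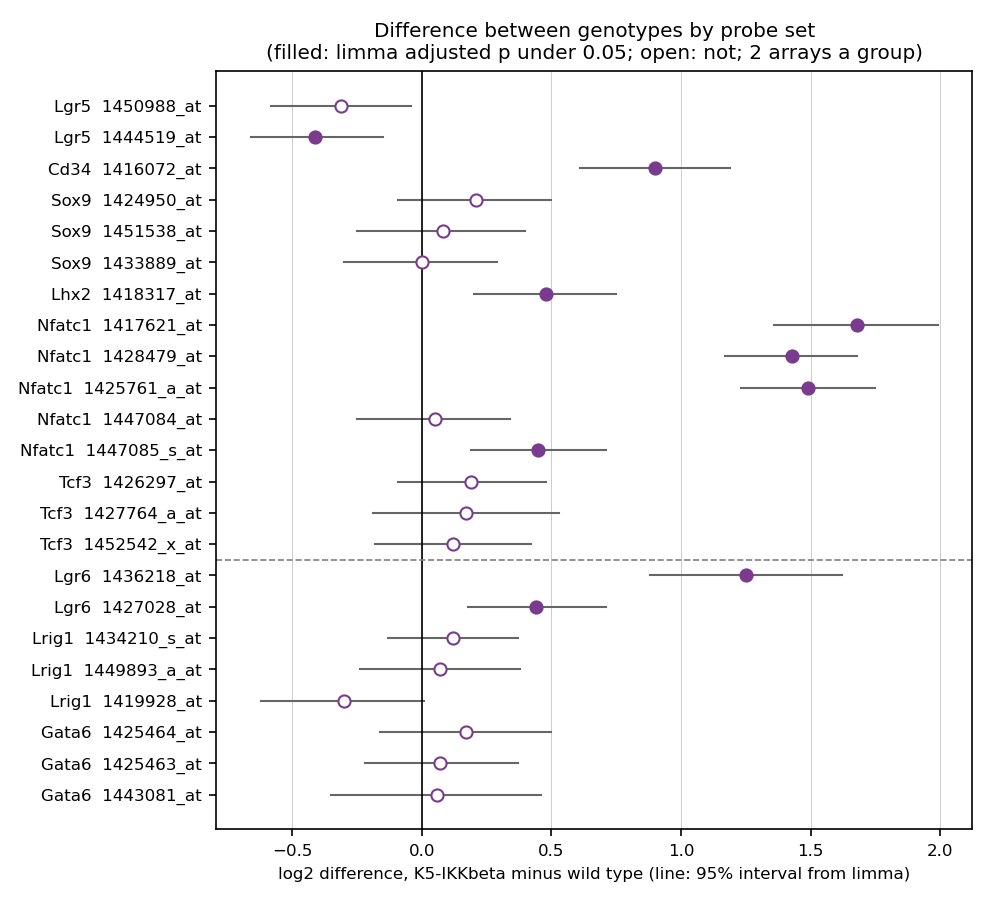
Log2 difference between genotypes (horizontal axis, K5-IKKbeta minus wild type) of each probe set (rows) with its 95% interval from limma (lines); filled points passed the adjusted p threshold of 0.05. The differences run from -0.41 for the dimmer Lgr5 probe set to 1.68 for Nfatc1, and 9 of the 23 points are filled.

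Promoter sequences are shown for the 3 genes that were higher and for which the RefSeq table of mouse build GRCm38.p6 gives a start site: the 250 bases before the start of Lgr6 (chr1:135105277-135105526, minus strand), of Cd34 (chr1:194938571-194938820, plus strand) and of the second listed start of Lhx2 (chr2:38351058-38351307, plus strand). They are written 5′ to 3′ along the gene. Capitals mark matches on either strand to 7 motifs: the NF-kB consensus, the E-box CANNTG bound by E2A proteins, CTTTGAT of TCF/LEF factors, ACAAAG of SOX factors, AGATAA of GATA factors, TAATTA of LIM homeobox factors and GGAAAA of NFAT factors.
Lgr6: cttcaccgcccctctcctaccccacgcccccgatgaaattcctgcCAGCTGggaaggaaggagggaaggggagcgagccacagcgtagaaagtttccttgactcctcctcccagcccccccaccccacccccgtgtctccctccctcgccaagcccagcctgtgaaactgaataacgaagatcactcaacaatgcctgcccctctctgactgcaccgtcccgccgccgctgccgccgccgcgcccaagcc
Cd34: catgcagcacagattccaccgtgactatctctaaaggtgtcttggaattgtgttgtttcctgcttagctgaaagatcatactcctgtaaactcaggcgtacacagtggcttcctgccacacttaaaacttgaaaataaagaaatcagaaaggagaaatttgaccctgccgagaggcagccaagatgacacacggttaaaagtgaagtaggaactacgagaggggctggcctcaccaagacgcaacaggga
Lhx2: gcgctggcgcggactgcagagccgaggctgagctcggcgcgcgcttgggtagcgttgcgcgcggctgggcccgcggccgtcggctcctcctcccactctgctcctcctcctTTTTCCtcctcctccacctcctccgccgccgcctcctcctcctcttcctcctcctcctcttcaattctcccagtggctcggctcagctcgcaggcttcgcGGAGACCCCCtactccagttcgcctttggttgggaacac

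The Lgr6 window held 1 match, an E-box at bases 46 to 51. The Lhx2 window held an NFAT motif on the minus strand at bases 112 to 117 and an NF-kB consensus on the minus strand at bases 212 to 221, with no overlap between them. The Cd34 window and that of the other Lhx2 start held no match. Among 32851 promoter windows of this length, 3.90% held the NF-kB consensus, 66.2% an E-box, 20.4% the NFAT motif, 16.5% the SOX motif, 9.99% the GATA motif, 4.84% the LIM homeobox motif and 3.21% the TCF/LEF motif. Of the members that did not pass, the Tcf3 window held an E-box and a SOX motif, and the Lrig1 window held no match. The table gave a window for 5 of the 9 members; Lgr5, Sox9, Nfatc1 and Gata6 were not among them. These matches describe letters in a window and say nothing of binding.

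Bulge and upper follicle genes were then set side by side. Of the 6 bulge genes 3 were higher and 0 lower, with a median log2 difference of 0.34 (-0.31 to 1.68), and without Tcf3 the median of the other 5 was 0.48. Of the 3 upper follicle genes 1 was higher and 0 lower, with a median of 0.17 (0.12 to 1.25). Each set held a gene with a difference above 1 (Nfatc1, Lgr6) and genes near 0, and the range of the upper follicle genes lay within that of the bulge genes. Over all 18193 genes the median was 0.03, with 14.3% higher and 6.67% lower. In the second fit, kept to brighter genes, 23.4% of 13080 genes were higher and 10.6% lower, with a median of 0.09. The difference between bulge and upper follicle genes was not tested.

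Further genes of both regions were measured too. Of 20 other bulge and hair germ genes, 4 were higher and 1 lower, with a median log2 difference of 0.32. Over all 18193 genes 14.3% were higher and 6.67% lower, with a median of 0.03. In the second fit, kept to brighter genes, 7 of the 20 were higher and 2 lower. The shares of all genes there were 23.4% higher and 10.6% lower, with a median of 0.09. Npnt, an integrin ligand by which bulge cells hold the arrector pili muscle, was higher by 1.44 (limma adjusted p = 0.0010), with 8.89 and 9.13 in wild type and 10.37 and 10.54 in K5-IKKbeta skin. Postn, a matrix protein also made by dermal fibroblasts, was higher by 1.05 (limma adjusted p = 0.0025), Gli1, a target of hedgehog signals, by 0.91 (limma adjusted p = 0.0027), and Wif1, a secreted Wnt inhibitor, by 0.91 (limma adjusted p = 0.039). Foxc1, which keeps bulge cells quiescent, was lower at -0.56 (limma adjusted p = 0.023), with 10.53 and 10.72 against 10.10 and 10.04. Krt15, the keratin most used to mark the bulge, had 0.43 without passing (limma adjusted p = 0.12), and its K5-IKKbeta pools lay at 13.29 and 12.89. Without either wild type array 3 of the list were higher and 0 lower.

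Of 5 other measured genes of upper follicle and isthmus, 1 was higher and 2 lower, with a median log2 difference of -0.49 (-1.22 to 0.98). Over all genes 14.3% were higher and 6.67% lower. In the second fit 2 of the 5 were higher and 3 lower, where 23.4% of genes were higher and 10.6% lower. The list thus had no common direction. Krt79, a keratin of the follicle duct, was higher by 0.98 (limma adjusted p = 0.0029), from 12.37 and 12.42 to 13.47 and 13.28. Prdm1, a repressor found in sebaceous gland and inner root sheath, was lower at -1.22 (limma adjusted p = 0.0010), and Plet1, a surface protein of the isthmus, was lower at -0.63 (limma adjusted p = 0.010). The count of lower genes was 1 without either wild type array. Prdm1 is also a gene of the inner root sheath, whose markers were lower throughout, and the part of that in its value was not tested. Of 5 sebaceous gland markers 3 were higher and 1 lower (list means 9.81 and 10.01 against 10.52 and 10.60). Of 7 measured cell cycle genes none passed in limma (log2 differences 0.00 to 0.38), with 1 at an unadjusted p under 0.05.

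**Figure D3:**
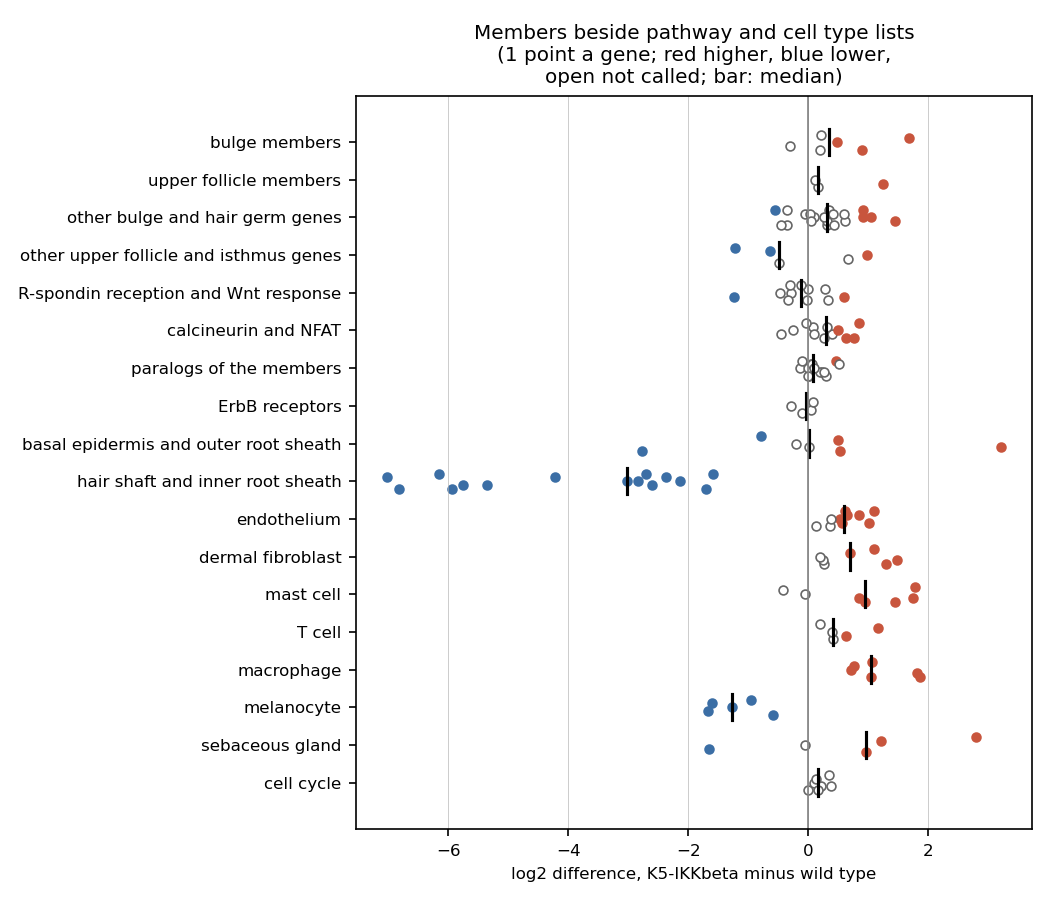
Log2 difference between genotypes (horizontal axis) of each gene by its brightest probe set (points; red higher, blue lower, open not past the threshold), by list (rows), with the list's median as a bar. The medians of bulge members (0.34) and other bulge genes (0.32) lie close to 0 beside that of hair shaft and inner root sheath (-3.02).

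For each member that was higher, the genes with the nearest profile were found over the 4 arrays, by the Euclidean distance between log2 values centred on each gene's mean. With 2 groups of 2 arrays such a profile holds little beyond the genotype difference and 2 differences between pools. Nearest to Nfatc1 lay Bcl3, an IkB-like partner of NF-kB subunits, Ikbke, an IKK-related kinase, and Tppp3, a tubulin-binding protein (distances 0.05, 0.05 and 0.06). Bcl3 measured 6.72 and 6.64 in wild type and 8.45 and 8.19 in K5-IKKbeta skin. Nearest to Lgr6 lay Cd70, a ligand of the TNF family, Fsd2 and Epsti1, an interferon-induced gene (each at 0.08). Both wild type values of Cd70, 4.28 and 4.75, lay below the 25th percentile of their arrays, so its distance rests on values at background. Nearest to Cd34 lay Zfp9, Srpx2 and Zfp423 (0.03, 0.03 and 0.04), and to Lhx2 lay Dad1, Acp2 and Eral1 (0.02, 0.03 and 0.03).

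**Figure D4:**
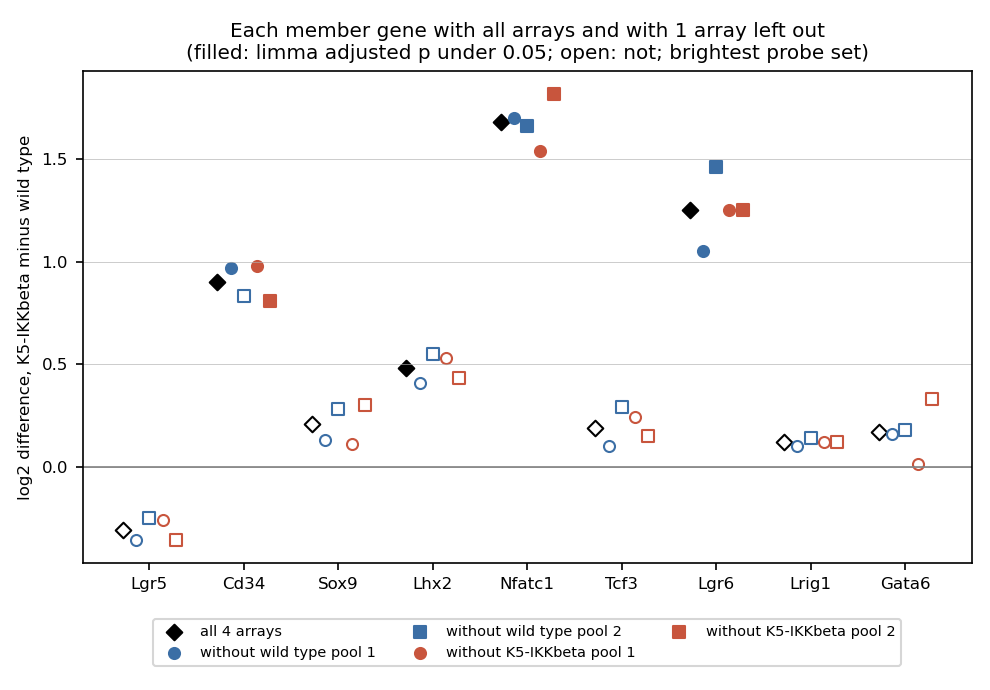
Log2 difference between genotypes (vertical axis) of each member gene by its brightest probe set, with all 4 arrays (black) and with 1 array left out (blue or red by the genotype of that array); filled points passed the adjusted p threshold of 0.05. Nfatc1 and Lgr6 passed in all 5 fits and Cd34 in all but 1, and Lhx2 passed only with all 4 arrays.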

How the data were processed

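Total RNA of back skin was labelled as cRNA and hybridised to Affymetrix arrays, per the labels' protocols. Per the submitters' processing notes the authors summarised probe intensities by RMA, which corrects background, normalizes by quantiles and takes log2. The deposited log2 values went into the tests unchanged. No source names the log base, which was read from their range of 2.65 to 14.67. For the software, its version and the build: not given in the sources used here. RMA compresses large changes, and the number of arrays limits the precision. The 64 control probe sets were left out, and 45037 went into lmFit and eBayes of limma 3.58.1 under R 4.3.3 (genotype as the only term, two-sided; prior 4.46 and residual 2 degrees of freedom), with Benjamini-Hochberg adjustment over all of them and a threshold of 0.05.

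Probe sets took their gene from the platform annotation where it gave 1 symbol (34958), and not where it gave several (932) or none (9211). A gene was represented by its brightest probe set over the 4 arrays, 18193 genes in all. Values of different probe sets have no common scale, and none was ranked against another as an amount of RNA. The 25th percentile of each array served as a floor. Lists of further genes were described by counts and medians. Their counts are to be read beside the 14.3% of all genes that were higher and the 6.67% that were lower. Tcf7, Krt85, Lck, Trbc1 and Ccnb1 had no probe set of 1 symbol and were not analysed here, and 1 further list gene is not reported here. The members, lists and rules for naming genes were chosen with earlier results of these data known. Named were all members, Tcf7l1, Ikbkb, up to 4 called genes of a list, any called gene of a list with 5 or fewer calls in a direction, and the 3 nearest profiles. Genes that did not pass in lists with calls (Lgr4, Axin2, Znrf3, Rnf43, Lrig2, Rcan1, Gata3, Sox8, Lhx8, Gata5, Krt15, Fcer1a, Kit, Ppp3cb) were named after their values were seen. Groups came from the labels, with 2 arrays each.

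Alternatives were filters at the 40th and 60th percentile, 1 probe set a gene, the mean of a gene's probe sets, no probe sets of shared sequence, another quantile normalization with and without hair genes, centring on the median, trend and robust eBayes, treat at 1.2-fold, the replicate number as a block, and each array left out.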

Additional observations from a re-analysis of the deposited data

How the results depend on the processing

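Nfatc1, Lgr6, Sox9, Tcf3 and Gata6 kept their direction and their side of the threshold under all 15 alternatives by their brightest probe set (with the gene's mean in 1 of them). Lgr5 passed with the mean of its probe sets (-0.36), another quantile normalization (-0.39) and the same without hair genes (-0.40). Lhx2 was lost against 1.2-fold (0.48, adjusted p = 0.35) and without each array (0.41 to 0.55), and Cd34 ranged from 0.81 to 0.98 without 1 array. Lrig1, not past the threshold, turned to -0.04 with the mean of its probe sets (adjusted p = 0.82). The median of bulge members was 0.25, in place of 0.34, without hair genes in the normalization.

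Member probe sets that were higher numbered 5 against 1.2-fold and 4 to 5 without 1 array, in place of 8, and 7 under the others. Lower ones numbered 2 with another quantile normalization, with or without hair genes, and 0 at the 60th percentile, with trend and robust settings, against 1.2-fold and without any 1 array (0 to 0), in place of 1. Member genes that were higher numbered 2 to 3 without 1 array, in place of 4, with 2 without wild type pool 2. Member genes that were lower numbered 1 with the mean of probe sets and with another quantile normalization, with or without hair genes.

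Over the pathway lists, 11 genes were higher and 4 lower. With 1 probe set a gene these were 18 and 7, with the mean of probe sets 17 and 9, and against 1.2-fold 6 and 2. Lower ones were 7 at the 40th and 60th percentile, with another quantile normalization and with trend and robust settings, and 8 without hair genes. Without 1 array, 4 to 13 were higher and 1 to 5 lower, and of cell type list genes 16 to 32 were higher in place of 30. For the count of probe sets called over the whole table, 7351 in the fit above, leaving out either wild type array cut the share called from 16.3% to 5.91% or 5.62%. Of 478 counts of single lists under alternatives, 78 moved by over 1.5 times. The gene counts of hair lists have no value without hair genes.

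Pools share numbers across genotypes, but with 2 pairs the labels do not show that these pair the samples; deviations of pools with the same number correlated at 0.25. With the replicate number as a block, 7 member probe sets were higher and 0 lower (in place of 8 and 1), and the 4 higher genes kept their calls (Lhx2 adjusted p = 0.037). The dimmer probe sets of Lgr5 and Lgr6 lost theirs (limma adjusted p = 0.052 and 0.058), and so did the 1 higher gene of R-spondin reception and Wnt response (0 higher). With 2 arrays a group, a lone array was assumed to vary like the other group where 1 was left out.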
